A study of Mus musculus with 6 samples.

Results

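The CCN family comprises secreted proteins that associate with the extracellular matrix without being structural parts of it. Its members were taken as the matrix rows whose symbol is Cyr61, Ctgf, Nov, Wisp1 or Wisp2, the older symbols of Ccn1 to Ccn5, and all 5 were found among the 31055 genes of the deposited matrix. Counts of unique molecular identifiers (UMIs, each standing for 1 captured RNA molecule) were available per cell for 6 droplet libraries. These held EGFP-positive cells sorted from the non-myocyte fraction of collagenase-digested hearts of C57BL/6 mice aged 3 to 6 months.

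The 3 Dsp_het libraries came from mice of genotype Wt1CreERT2, Rosa26mTmG and DspW/F, which carry 1 conditional allele of Dsp, the gene for the desmosomal plaque protein desmoplakin. The 3 control libraries came from mice with Wt1CreERT2 and Rosa26mTmG and no conditional Dsp allele. The Cre reporter was therefore shared by both groups. The Wt1 promoter, active in the epicardium and in some other cells of the heart, drove the inducible Cre recombinase, and EGFP marked cells in which it had acted and their descendants. The labels give neither the number of animals behind a library nor their sex, so p-values here measure the spread between these libraries.

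As background, a CCN protein carries an insulin-like growth factor binding protein module, a von Willebrand factor type C module and a thrombospondin module, and all members but Wisp2 also carry a carboxy-terminal cystine knot. The proteins bind integrins, heparan sulfate proteoglycans and growth factors, and thereby act on adhesion, migration, angiogenesis and matrix deposition. Cyr61 and Ctgf are rapidly induced genes and textbook targets of YAP and TAZ, the co-activators that the Hippo pathway restrains and that work through TEAD factors. Ctgf is also a target of TGF-beta and a marker of cardiac fibrosis.

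By the annotation of mouse build GRCm38 (GENCODE M21), Cyr61 lay at chr3:145646976-145649981 on the minus strand, and Ctgf at chr10:24595442-24598683, Nov at chr15:54745702-54754039, Wisp1 at chr15:66891320-66923201 and Wisp2 at chr2:163820861-163833146 on the plus strand. Each is protein coding with transcripts of up to 5 exons. Ctgf overlaps an annotated gene on the opposite strand, Gm15270, so a few of its UMIs could belong to that gene if strand was not used in counting.

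Of the 5 members, Cyr61 (Ccn1) had an entry in the RefSeq promoter table used here, build GRCm38.p6. The sequence is shown because Cyr61 was the most abundant member and its induction runs through TEAD sites. It spans the 250 bases before the start, chr3:145649986-145650235, and is written 5′ to 3′ on the minus strand, with the letters CATTCC, the core of the TEAD site, in capitals.
Ccn1 promoter: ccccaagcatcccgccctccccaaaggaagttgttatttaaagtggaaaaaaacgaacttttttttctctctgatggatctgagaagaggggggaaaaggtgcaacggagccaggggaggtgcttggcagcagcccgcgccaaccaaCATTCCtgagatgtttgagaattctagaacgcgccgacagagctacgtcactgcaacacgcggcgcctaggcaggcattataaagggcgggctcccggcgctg
The CATTCC match lay between positions -103 and -98 from the start and overlapped no other motif searched. Both strands were searched, and CATTCC occurred in 12.6% of the 32851 promoter windows of that length. No match was found for TGANTCA, the AP-1 site, which 6.75% of windows held, for TGACGTCA, the cyclic AMP response element, which 1.55% held, or for the CArG box of serum response factor, which 1.47% held. A match describes these letters and is not evidence of binding.

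The 6 libraries held 18283 cell barcodes and between 7573157 and 17083660 UMIs each, and 12651 cells were analysed. Some barcodes occurred in several libraries. This held for 1689 of the 13183 distinct barcodes. The copies other than the main one were left out of the levels, shares and fits below, unless stated. Clustering and the choice of leading genes used all kept barcodes, copies among them. The copies made up 16.8% to 36.7% of the kept barcodes in the Dsp_het libraries and 12.8% to 22.1% in the control libraries, and 4.25% of all kept UMIs. Median depth per library ranged from 3489 to 6500 UMIs. Dsp itself was close to the limit of detection, at 1.196 to 3.53 CPM (counts of a gene per 1000000 counts) in Dsp_het and 1.28 to 2.18 CPM in control libraries, so its level gives no check of the genotype. Xist exceeded 100 CPM in 1 library of each group. By markers, 9360 cells were endothelial-like, 1213 fibroblast-like, 603 epicardial-like, 255 pericyte-like, 204 macrophage-like and 89 cycling-like, and 900 were left unnamed. Epicardial-like cells were thus a minority of the cells sorted by the Wt1-driven reporter.

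The family was carried almost wholly by Cyr61, Ctgf, Nov and Wisp2. Over all analysed cells, 15079 UMIs were Cyr61, 4096 Ctgf, 2525 Wisp2, 1361 Nov and 5 Wisp1. The sixth family gene, Wisp3, which is not a member here, also had 5 UMIs. Fibroblast-like cells were the main source of Wisp2 and Ctgf, and endothelial-like cells that of Nov and Cyr61. Fibroblast-like cells held 15.4% of all UMIs but 98.5% of the Wisp2 UMIs and 70.3% of the Ctgf UMIs. Endothelial-like cells, with 62.1% of all UMIs, held 74.2% of the Nov UMIs, 51.3% of the Cyr61 UMIs and 21.1% of the Ctgf UMIs. Epicardial-like cells, with 9.54% of all UMIs, held 15.3% of the Cyr61 UMIs.

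Levels below are in CPM, the UMIs of a member per 1000000 UMIs of the same cells in the same library. Each class or cluster was used in the libraries in which it had at least 20 cells. Pericyte-like and macrophage-like cells reached that number in Dsp_het library 3 and in the 3 control libraries. Levels were placed in order by their mean over libraries, and each neighbouring pair was compared within libraries on the log2(CPM + 1) scale with a two-sided exact sign-flip permutation test. That test cannot give a p below 0.03125 with 6 libraries or 0.125 with 4, and the p-values were adjusted over the 16 class pairs.

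Cyr61 binds integrins and promotes angiogenesis, and it was the most broadly detected member. Its level in epicardial-like cells was 277, 239 and 632 CPM in the Dsp_het libraries and 366, 403 and 307 CPM in the control libraries. In fibroblast-like cells it was 561, 292 and 348 CPM in Dsp_het and 426, 181 and 239 CPM in control libraries. In endothelial-like cells it was 180.4, 198 and 161 CPM in Dsp_het and 198, 248 and 198 CPM in control libraries. The order of the means ran from epicardial-like (371 ± 141 CPM, SD, n = 6) and fibroblast-like (341 ± 137, n = 6) through pericyte-like (219, n = 4) and endothelial-like (197 ± 28.8, n = 6) to macrophage-like cells (40.8, n = 4). The first 3 neighbouring pairs did not differ beyond their spread. Endothelial-like cells stood above macrophage-like cells in 4 of 4 libraries, by 2.67 on the log2 scale (SD 1.46; exact p = 0.125, the smallest possible, adjusted p = 0.444).

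Ctgf, a growth factor modulator of fibroblasts, was concentrated in fibroblast-like cells. Their level was 304, 296 and 359 CPM in Dsp_het and 359.9, 144 and 248 CPM in control libraries, a mean of 285 ± 81.1 CPM (SD, n = 6). Pericyte-like cells came next with 71.1 CPM in Dsp_het library 3 and 78.8, 145 and 111 CPM in the control libraries. Epicardial-like cells, mesothelium of the heart surface, had 14.1, 15.7 and 19.0 CPM in Dsp_het and 11.8, 82.3 and 23.3 CPM in control libraries, so control library 2 stood above the other 5. In that library the summed fibroblast markers in the epicardial-like cells were 11330 CPM, and they were 8984 to 11820 CPM in the others. The part of fibroblast RNA in this Ctgf value was not tested. Endothelial-like cells averaged 21.4 ± 4.88 CPM (SD, n = 6) and macrophage-like cells 0.907 CPM (n = 4). Pericyte-like cells exceeded epicardial-like cells in 4 of 4 libraries, by 1.88 on the log2 scale (SD 0.78; exact p = 0.125, adjusted p = 0.444), and endothelial-like cells exceeded macrophage-like cells in 4 of 4 (3.79, SD 1.33; exact p = 0.125, adjusted p = 0.444). Fibroblast-like cells exceeded pericyte-like cells in 3 of 4 libraries (1.41, SD 1.08; exact p = 0.25, adjusted p = 0.444), and epicardial-like and endothelial-like cells did not differ beyond their spread.

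Nov, a member often described as opposing Ctgf in culture, was low in every class as a whole. Endothelial-like cells averaged 28.7 ± 14.7 CPM, fibroblast-like cells 20.5 ± 10.5 CPM and epicardial-like cells 15.4 ± 14.96 CPM (SD, n = 6 each). Pericyte-like cells averaged 11.03 CPM (n = 4). No Nov UMI was found in 204 macrophage-like cells, which allows a share of such cells with a UMI of up to 1.79% (95% Clopper-Pearson). None of its 4 neighbouring class pairs went the same way in every library.

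Wisp2, the member without the cystine knot, marked fibroblast-like cells. Their level was 272, 339 and 235 CPM in Dsp_het and 416, 165 and 92.3 CPM in control libraries. Epicardial-like cells followed with at most 11.8 CPM in any library, from 13 UMIs in all, and endothelial-like cells had 0.212 to 0.755 CPM, from 20 UMIs in 9360 cells. Fibroblast-like cells exceeded epicardial-like cells in 6 of 6 libraries, by 6.03 on the log2 scale (SD 1.51; exact p = 0.03125, the smallest possible, adjusted p = 0.444). Wisp1, known as a WNT-induced gene, had 1 UMI each in cycling-like, endothelial-like, epicardial-like, fibroblast-like and pericyte-like cells, and it is not ranked.

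The pericyte-like class is itself mixed. Its summed endothelial markers were 23920 CPM in Dsp_het library 3 and 21230 to 25690 CPM in control libraries, against pericyte markers of 10140 CPM and 9459 to 12180 CPM in the same cells. Its member levels are therefore levels of a mixture, and the part of the endothelial RNA in them was not tested.

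**Figure D1:**
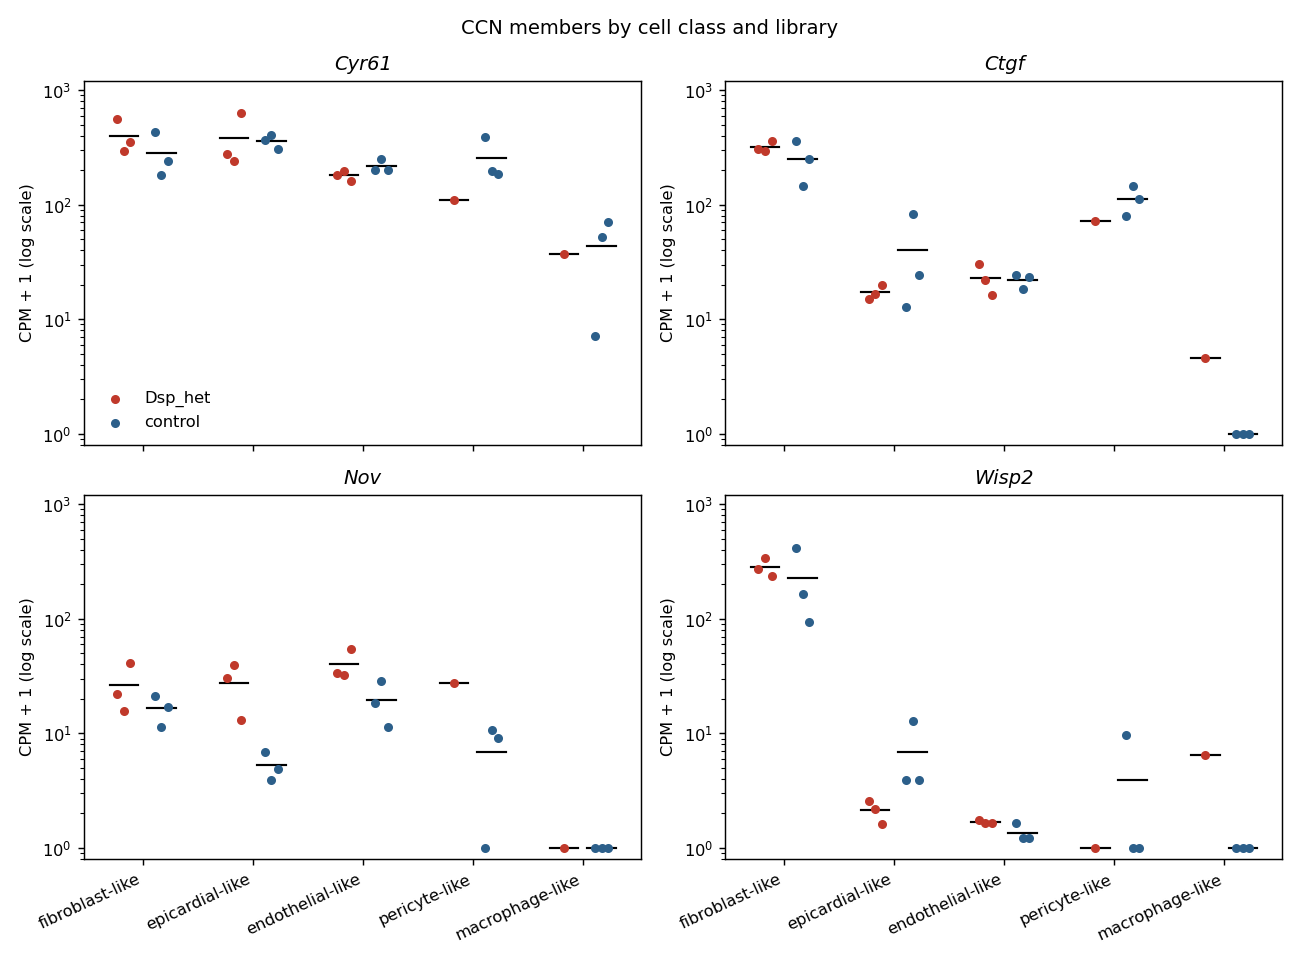
Level of Cyr61, Ctgf, Nov and Wisp2 in each cell class, in CPM on a log10 axis after adding 1. Each point is 1 library, Dsp_het left of control, and the horizontal marks are means over the libraries of each group. Wisp2 lies above 92 CPM in fibroblast-like cells of all 6 libraries and at or below 11.8 CPM in epicardial-like and endothelial-like cells.

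The share of single cells with a UMI depends on depth, so each cell was also thinned to 1000 UMIs, which left out 604 shallower cells. Of 1213 fibroblast-like cells, 36.7% had a Wisp2 UMI before thinning and 16.6% after it. Ctgf was found in 45.8% of fibroblast-like cells before and 17.6% after thinning, and Cyr61 in 44.2% and 21.3%. Macrophage-like cells, taken as the type that should lack both genes, gave Wisp2 UMIs in 0.980% and Nov UMIs in 0% of 204 cells, at a median of 10693 UMIs against 7582 in fibroblast-like cells. Endothelial-like cells had a Nov UMI in 5.55% of cells before and 1.81% after thinning, at a median of 3756 UMIs. Expression was skewed between cells. Single cells carried up to 81 Ctgf UMIs in an endothelial-like cluster and up to 77 Cyr61 UMIs among epicardial-like cells, while the median among endothelial-like cells with any Ctgf was 1 UMI.

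Within the endothelial-like class, 9 clusters built without the members as variable genes showed different member patterns, and each is called here by 2 of its leading genes. Ctgf and Nov sat in a few of them, whereas Cyr61 was found throughout. Of the 866 endothelial Ctgf UMIs, 603 (69.6%) came from the Vwf and Cytl1 cluster of 398 cells. In this cluster 126 cells had a Ctgf UMI, and the highest single cell held 81. Of the 1010 endothelial Nov UMIs, 336 came from this cluster, 332 from the Gja4 and Hey1 cluster and 275 from the Ccl21a and Rasa4 cluster. As background, Vwf is highest in veins and endocardium, Gja4 and Hey1 in arteries, and Ccl21a in lymphatic vessels. The Ccl21a and Rasa4 cluster was not named lymphatic, as no marker list had more than 1 gene among its 10 leading genes and 2 were needed. Nr2f2, from the list of venous markers, was among those genes beside Ccl21a.

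Ctgf in the Vwf and Cytl1 cluster was 250.3, 181 and 70.9 CPM in Dsp_het and 255, 259.9 and 185 CPM in control libraries, with Dsp_het library 3 the lowest. The mean of 200.4 ± 72.7 CPM (SD, n = 6) was set against 13.0 ± 7.94 CPM in the next cluster, Ccl21a and Rasa4, and the other 7 averaged from 4.08 to 10.0 CPM. The step to Ccl21a and Rasa4 had the same direction in 6 of 6 libraries, at 3.903 on the log2 scale (SD 0.96; exact p = 0.03125, adjusted over the 24 cluster pairs 0.188).

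Nov was highest in 2 clusters, with 1 more between these and the rest. In the Gja4 and Hey1 cluster it was 67.8, 144 and 151 CPM in Dsp_het and 78.0, 136 and 36.8 CPM in control libraries. In the Vwf and Cytl1 cluster it was 144, 94.96 and 168 CPM in Dsp_het and 59.9, 83.5 and 41.4 CPM in control libraries. Their means of 102 ± 47.5 and 98.6 ± 48.7 CPM (SD, n = 6 each) did not differ beyond their spread. The Ccl21a and Rasa4 cluster had 49.6, 56.9 and 35.9 CPM in Dsp_het and 32.7, 42.9 and 16.3 CPM in control libraries. It was below the Vwf and Cytl1 cluster in 6 of 6 libraries (1.26 on the log2 scale, SD 0.55; exact p = 0.03125, adjusted p = 0.188) and above the next cluster, Rbp7 and Hey1, in 6 of 6 (2.83, SD 0.76; exact p = 0.03125, adjusted p = 0.188). The other 6 clusters averaged 1.31 to 5.36 CPM. With the members kept among the variable genes the difference between the Vwf and Cytl1 and the Ccl21a and Rasa4 clusters turned to -1.21. In that clustering the cluster matched to Vwf and Cytl1 shared only part of its cells (Jaccard index 0.344).

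Cyr61 was graded rather than confined. The Gja4 and Hey1 cluster led with 289.9, 480.5 and 333 CPM in Dsp_het and 422, 549.7 and 393 CPM in control libraries, a mean of 411 CPM. The Vwf and Cytl1 cluster averaged 309 CPM and the Hspa1a and Timp4 cluster, which is led by heat shock and immediate-early genes, 299 CPM. The lowest levels were those of the Timp4 and Car4 cluster, with capillary genes, at 99.8 CPM and of the Ccl21a and Rasa4 cluster at 61.8 CPM. Of the 8 neighbouring pairs, Rbp7 and Hey1 over Lars2 and Syne1 went the same way in 6 of 6 libraries (0.59 on the log2 scale, SD 0.31; exact p = 0.03125, adjusted p = 0.188), and it turned to -0.51 with the members kept among the variable genes. Among single cells of the Gja4 and Hey1 cluster, 48.9% had a Cyr61 UMI before and 25.5% after thinning.

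**Figure D2:**
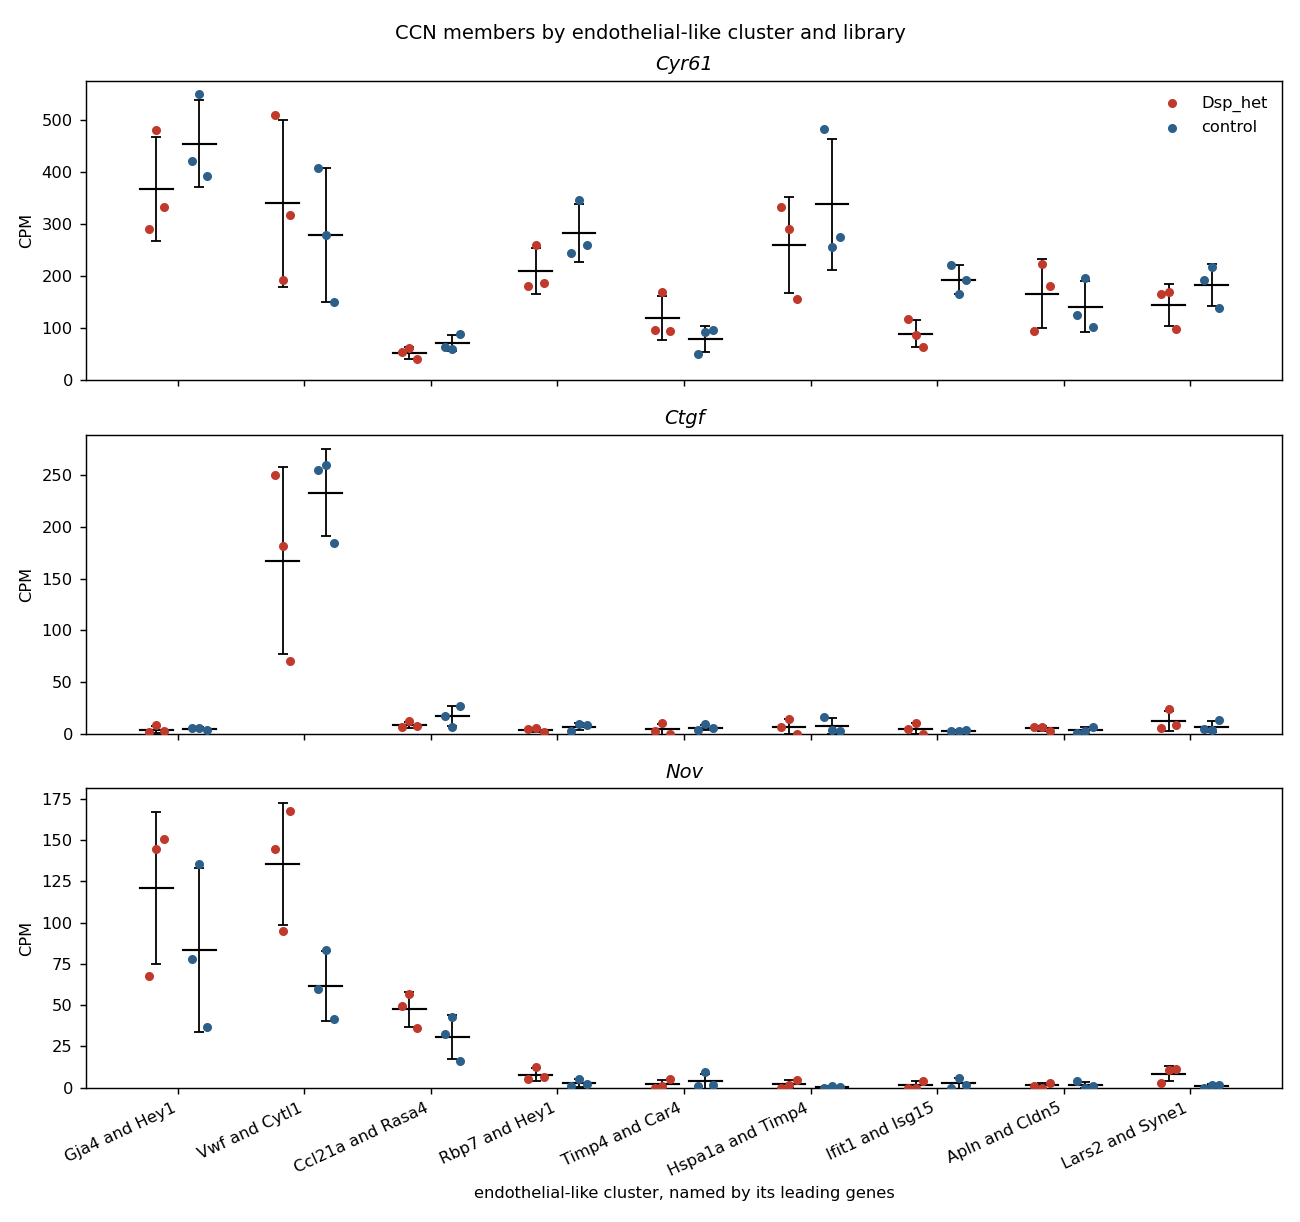
Level of Cyr61, Ctgf and Nov in the 9 endothelial-like clusters, in CPM on a linear axis, with 1 point per library and Dsp_het left of control. Horizontal marks are means over the libraries of each group, with bars of 1 SD. By means over the 6 libraries, Ctgf has 1 high cluster at 200.4 CPM, Nov has 2 at 102 and 98.6 CPM and 1 at 39.1 CPM, and Cyr61 spans 61.8 to 411 CPM.

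The Vwf and Cytl1 cluster itself was not uniform. It was divided by the presence of a UMI of Npr3, an endocardial marker. This division was chosen after the values were seen, so it is given as a description with no test. The 131 cells with Npr3 had a median of 9720 UMIs and the 267 without it 6746. Cyr61 was 588 ± 339 CPM with Npr3 and 138 ± 38.9 CPM without it (SD, n = 6 each), and higher with Npr3 in 6 of 6 libraries. Ctgf was 296 ± 175 CPM with Npr3 and 131 ± 72.9 CPM without it, higher in 5 of 6. Nov ran the other way, at 45.3 ± 51.5 CPM with Npr3 and 137 ± 64.4 CPM without it, and was lower with Npr3 in 6 of 6 libraries. The cells with Npr3 also carried more Dcn, a fibroblast matrix gene, at 3176 against 144 CPM, and more Mgp, at 5410 against 990.3 CPM, while Vwf was 1869 against 1340 CPM. Whether a share of these barcodes hold more than 1 cell was not tested.

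**Figure D3:**
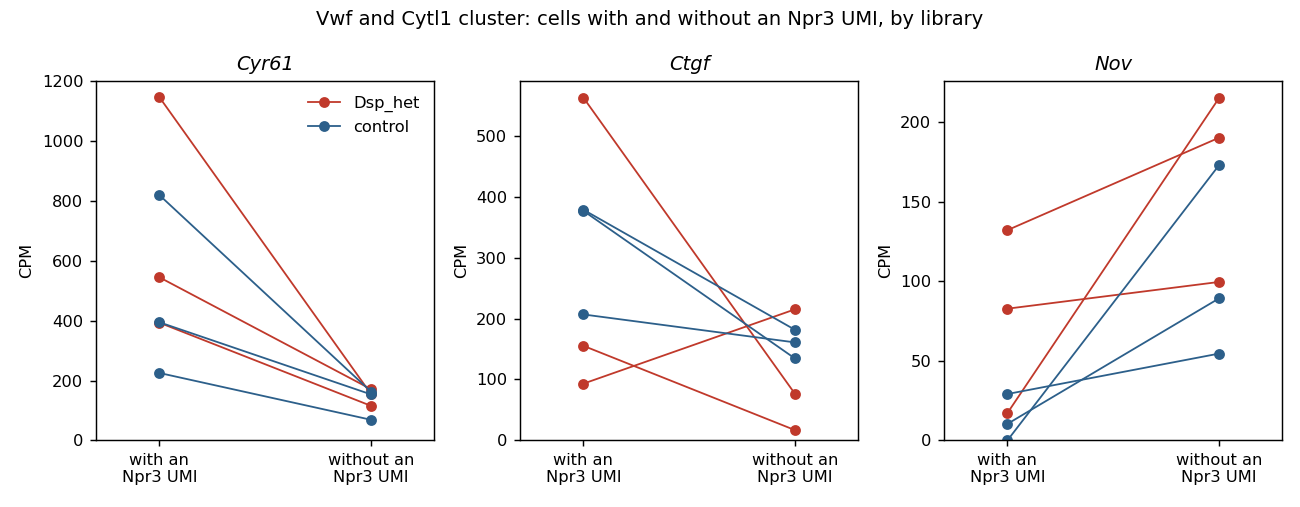
Cyr61, Ctgf and Nov in the Vwf and Cytl1 cluster, in CPM, for cells with an Npr3 UMI and cells without one. Lines join the values of 1 library, coloured by group. Cyr61 is higher with Npr3 in all 6 libraries and Nov is lower with Npr3 in all 6.

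Fibroblast-like cells also differed among themselves. The Ccl11 and Igfbp3 cluster had 71 cells in all, 61 of them in Dsp_het library 1. In that library alone, both it and the Gsn and Ptn cluster had at least 20 cells. Wisp2 there was 8.40 CPM (95% Poisson interval 2.29 to 21.5) in the Ccl11 and Igfbp3 cluster. It was 304.8 CPM (288 to 322) in the 551 cells of the Gsn and Ptn cluster. Nov was 94.5 CPM (68.9 to 126) in the Ccl11 and Igfbp3 cluster and 11.9 CPM (8.79 to 15.8) in the Gsn and Ptn cluster. Ctgf was 279 CPM (234 to 331) in the Ccl11 and Igfbp3 cluster and 309 CPM (292 to 327) in the Gsn and Ptn cluster, so the intervals overlapped. The intervals cover counting error in 1 library only. With 1 library there is no test.

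In the same library, 571 fibroblast-like cells had a UMI of Pi16 or Cd248, markers of an adventitial fibroblast state, and 57 had none. Wisp2 was 279 CPM with these markers and 185 CPM without them. Ctgf was 317 CPM with them and 147 CPM without them, and Cyr61 585 CPM with and 257 CPM without them. Nov was 22.9 CPM with the markers and 0 UMIs were found without them, which allows up to 11.03 CPM (upper end of the 95% Poisson interval). The cells with markers were deeper, at a median of 7204 UMIs against 6142.

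The question that the groups address is how CCN expression differed between Dsp_het and control hearts. Nov was the member with the clearest difference, higher in Dsp_het, but no member passed the test across all genes in any comparison. With edgeR's quasi-likelihood test on summed counts and Benjamini-Hochberg adjustment at 0.05, 0.0% of 12969 genes were called over all cells. The same held for 0.0% of 11280 in endothelial-like cells, for 0.0119% (1 gene) of 8402 in fibroblast-like cells and for 0.0% of 8293 in epicardial-like cells. At an unadjusted p under 0.05 the shares were 12.7%, 4.36%, 2.98% and 3.14%. DESeq2 called 390 genes over all cells, 12 in endothelial-like, 1 in fibroblast-like and 0 in epicardial-like cells. Wisp1 was too low to be tested anywhere, and Wisp2 too low for the fits within endothelial-like and within epicardial-like cells.

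Nov over all cells was 27.7, 27.6 and 36.0 CPM in Dsp_het and 15.6, 20.3 and 8.71 CPM in control libraries, so the groups did not overlap. Of 8689 genes with a mean of at least 10 CPM, 8.42% were likewise higher in Dsp_het without overlap. The log2 fold change of Nov was 1.05 (SE 0.27; edgeR adjusted p = 0.199), and DESeq2 put the same fold change at an adjusted p of 0.0117. With copied barcodes included the fold change was 1.01 over all cells, 1.10 in endothelial-like and 2.02 in epicardial-like cells.

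In endothelial-like cells, Nov was 32.3, 31.4 and 53.1 CPM in Dsp_het and 17.4, 27.5 and 10.3 CPM in control libraries. The lowest Dsp_het library lay just above control library 2, and control library 3 was the lowest of all. The log2 fold change was 1.14 (SE 0.28; edgeR adjusted p = 0.741), and 2.93% of genes were higher in Dsp_het without overlap. By the unadjusted p of this edgeR fit, Nov ranked 24 of 11280 genes. Without the low-count filter the fold change was 1.12 with a SE of 0.14, and the edgeR adjusted p was 9.76e-12, in a fit that called 172 genes. That low p goes with a smaller SE at much the same fold change, and why the SE fell was not tested. DESeq2 gave Nov a fold change of 1.10 (SE 0.44; unadjusted p = 0.0127), which missed the threshold after adjustment. The share of endothelial UMIs from the 3 Nov-rich clusters was 40.1%, 34.5% and 49.1% in Dsp_het and 33.1%, 30.6% and 31.2% in control libraries. Its part in the difference was not tested as a whole, but the levels within each cluster are given above. Within the Vwf and Cytl1 cluster the 3 Dsp_het libraries were above the 3 control libraries, while in the Gja4 and Hey1 and the Ccl21a and Rasa4 clusters the groups overlapped. With the members kept among the variable genes this was turned round, as Nov then separated the groups in the cluster matched to Ccl21a and Rasa4 and not in that matched to Vwf and Cytl1.

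Of the 15 pairs of a member and an endothelial cluster with a mean of at least 10 CPM, 2 had groups that did not overlap, beside 7.67% to 10.7% of genes in either direction over the 9 clusters. One was Nov in the Vwf and Cytl1 cluster, at 136 ± 37.1 CPM in Dsp_het and 61.6 ± 21.1 CPM in control libraries (SD, n = 3 each). There, 5.65% of genes were higher in Dsp_het without overlap, and an exact permutation test of 3 against 3 cannot go below p = 0.1. The groups overlapped when copied barcodes were included or when the members were kept among the variable genes, where Cyr61 in the Lars2 and Syne1 cluster was also lower in Dsp_het without overlap. Among the cells of this cluster without Npr3 the groups overlapped, with Nov at 215, 99.6 and 190.3 CPM in Dsp_het and 89.3, 173 and 54.6 CPM in control libraries. The summed fibroblast markers of this cluster were lower in Dsp_het (940 to 1470 CPM) than in control (2065 to 3606 CPM). The endocardial markers were at 1803 to 2291 CPM in Dsp_het and 2225 to 2835 CPM in control, with overlap. The part of either in the Nov difference was not tested.

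The other pair was Cyr61 in the Ifit1 and Isg15 cluster, whose leading genes respond to interferon. It was 117, 86.9 and 64.7 CPM in Dsp_het and 221, 166 and 193 CPM in control libraries, from 80 UMIs in Dsp_het and 244 in control libraries, and 4.62% of genes were lower in Dsp_het there without overlap. These groups stayed apart with copied barcodes included, under a stricter cell filter and with members kept among the variable genes. These settings left most cells of the cluster unchanged, so they are a weak check. Its Dsp_het libraries had 121, 45 and 34 cells, and 118, 45 and 34 under the stricter filter. With members kept, the matched cluster had a Jaccard index of 0.888. Leaving out 1 library cannot bring overlap to groups that have none, so that alternative is no check here. The summed immediate-early and heat shock genes of this cluster were 6304, 7273 and 5710 CPM in Dsp_het and 6727, 7975 and 8388 CPM in control libraries, with overlap. Their part in the Cyr61 difference was not tested. Over all endothelial-like cells Cyr61 was also lower in Dsp_het, by value, with the highest Dsp_het library at 197.6 CPM and the lowest control library at 198.2 CPM. Its log2 fold change was -0.25 (SE 0.12; edgeR adjusted p = 0.999), or -0.16 without control library 2, and 3.89% of genes were lower without overlap. Ctgf in endothelial-like cells was 29.3, 21.1 and 15.3 CPM in Dsp_het and 23.2, 17.5 and 22.1 CPM in control libraries, with a log2 fold change of 0.07 (SE 0.21; edgeR adjusted p = 0.999) that was -0.21 without Dsp_het library 1 and -0.05 without control library 2.

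In epicardial-like cells, Nov was 29.2, 38.6 and 12.0 CPM in Dsp_het and 5.91, 2.94 and 3.88 CPM in control libraries. These values come from 56, 32 and 19 UMIs in Dsp_het and only 2, 1 and 4 UMIs in control libraries, 2 of which were under the 3 counts taken as the floor of detection. The log2 fold change was 2.62 (SE 0.58), and 3.39% of genes were higher in Dsp_het without overlap. The edgeR adjusted p was 0.758, or 5.71e-05 without the low-count filter (2.65, SE 0.49), and the DESeq2 adjusted p was 0.850. Nov passed the count filter here through its UMIs in the Dsp_het libraries, so this fold change is given as a description. Without Dsp_het library 1 Nov was under the filter and was not fitted. The summed endothelial markers in these cells were 672 to 1304 CPM in Dsp_het and 744 to 1989 CPM in control libraries. The part of endothelial RNA in these Nov values was not tested.

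**Figure D4:**
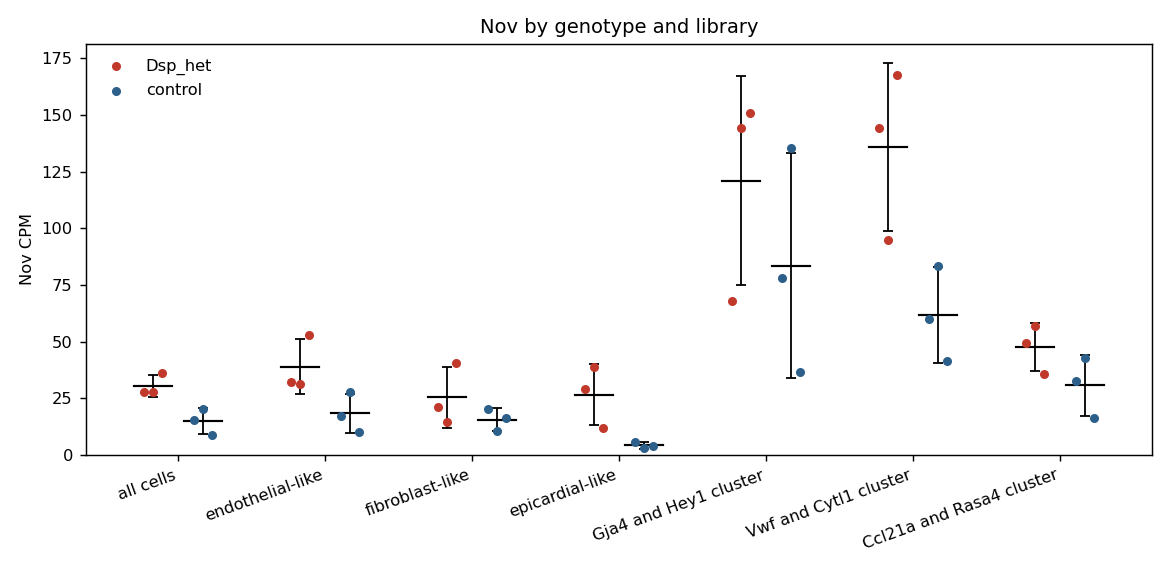
Nov level per library over all cells, in endothelial-like, fibroblast-like and epicardial-like cells and in the 3 endothelial clusters that held most Nov, in CPM, with Dsp_het left of control and horizontal marks for the means of 3 libraries. The groups do not overlap over all cells, in endothelial-like and epicardial-like cells and in the Vwf and Cytl1 cluster.

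In fibroblast-like cells no member separated the groups, while 7.84% of genes did. Nov was 21.2, 14.6 and 40.3 CPM in Dsp_het and 20.3, 10.4 and 16.1 CPM in control libraries (log2 fold change 0.62, SE 0.35; edgeR adjusted p = 1). The fold changes of Cyr61 (0.53, SE 0.29), Ctgf (0.34, SE 0.23) and Wisp2 (0.34, SE 0.37) were positive, each with an edgeR adjusted p of 1. Single libraries set much of these values. Cyr61 was at 0.15 without Dsp_het library 1 and at 0.92 without control library 1, Ctgf at 0.08 without control library 2 and at 0.66 without control library 1, and Nov at 0.27 without Dsp_het library 3. Control library 1 had the highest Wisp2 of all libraries and control libraries 2 and 3 had the lowest, so the spread of Wisp2 lay within the control group. Its fold change was 1.14 without control library 1 and -0.05 without control library 3.

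Ctgf over all cells was 119.5, 51.0 and 60.4 CPM in Dsp_het and 54.1, 34.7 and 47.7 CPM in control libraries, a log2 fold change of 0.76 (SE 0.34; edgeR adjusted p = 0.413) that was 0.25 without Dsp_het library 1. Wisp2 was 92.7, 40.0 and 30.1 CPM in Dsp_het and 40.8, 16.8 and 8.97 CPM in control libraries, a log2 fold change of 1.33 (SE 0.59; edgeR adjusted p = 0.412) that was 0.66 without Dsp_het library 1 and 2.09 without control library 1. The groups overlapped for both. The share of UMIs from fibroblast-like cells, the main source of both, was 33.9%, 11.6% and 12.4% in Dsp_het and 9.65%, 9.78% and 9.36% in control libraries, and its part in these sums was not tested. In sums over all cells, more cells of a type and more RNA of a gene per cell cannot be told apart. Cyr61 over all cells gave 0.28 (SE 0.18; edgeR adjusted p = 0.582), with 0.07 without Dsp_het library 1 and 0.43 without Dsp_het library 2.

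In epicardial-like cells, Ctgf had a log2 fold change of -1.09 (SE 0.47; edgeR adjusted p = 1), with control library 2 at 82.3 CPM, and without that library the fold change was -0.26. Cyr61 there gave 0.14 (SE 0.29; edgeR adjusted p = 1), and -0.42 without Dsp_het library 3. Its highest value, 632 CPM in Dsp_het library 3, stood beside the highest sum of immediate-early and heat shock genes, 15320 CPM, against 10410 and 6979 CPM in the other Dsp_het libraries and 7079 to 8149 CPM in control libraries. A link between them was not tested.

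Differences of the genotype effect between classes were tested as interactions in 1 fit with library as a block, with endothelial-like cells as the base. No member passed, and 0.0% of 11162 genes were called for fibroblast-like and 0.00896% (1 gene) for epicardial-like cells, against 3.64% and 5.19% at an unadjusted p under 0.05. DESeq2 called 0 genes in both. For Nov the effect differed by -0.61 in fibroblast-like cells (SE 0.52; edgeR adjusted p = 1) and by 1.33 in epicardial-like cells (SE 0.89; adjusted p = 0.972). A difference of the Nov effect between classes was thus not shown. Wisp2 entered this fit through its fibroblast-like counts, and its effect differed by -3.13 in epicardial-like cells (SE 0.91; edgeR adjusted p = 0.910). That value rests on 13 UMIs in epicardial-like and 20 in endothelial-like cells, so it is given as a description.

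**Figure D5:**
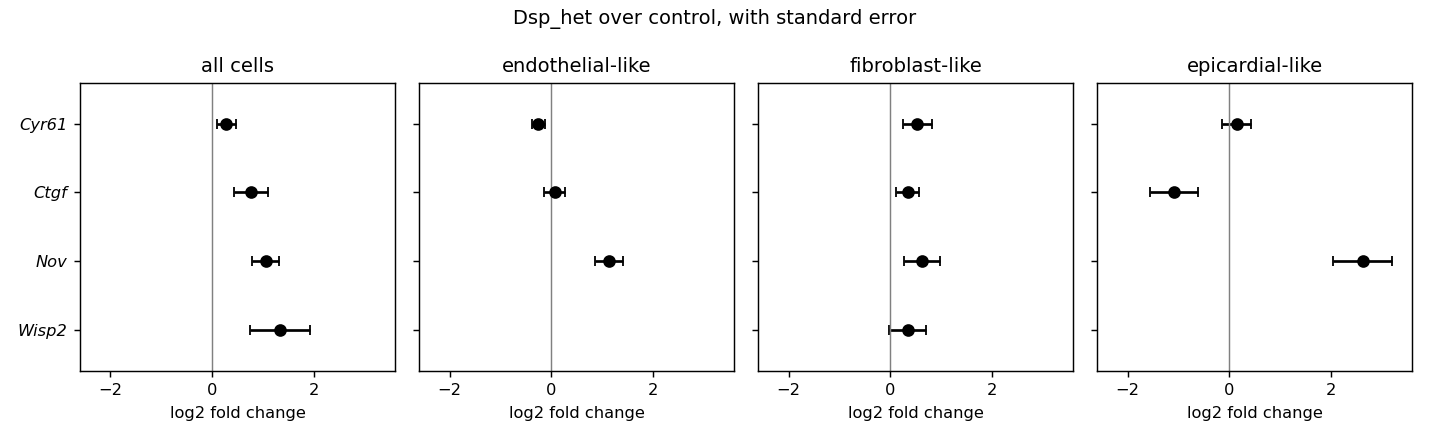
Log2 fold change of each tested member, Dsp_het over control, from edgeR fits of summed counts over all cells and in 3 classes, with bars of 1 standard error. Nov lies at 1.05, 1.14 and 2.62 over all cells and in endothelial-like and epicardial-like cells, and no point passes an adjusted p of 0.05.

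The genes around the family were described from 8 lists of its regulators, receptors and relatives. No gene of any list passed the test in any of the 4 comparisons, so counts above 0 and medians are given beside those of all genes, whose medians lay between -0.01 and 0.00 on the log2 scale. Of all genes, 6196 of 12969 lay above 0 over all cells, 5709 of 11280 in endothelial-like, 4226 of 8402 in fibroblast-like and 4173 of 8293 in epicardial-like cells. Over all cells, the 12 tested genes of other matricellular proteins had a median log2 fold change of 0.74, with 9 above 0. The 2 with the smallest p missed the threshold, namely Thbs2, an antiangiogenic thrombospondin, at 1.27 (SE 0.21; edgeR adjusted p = 0.131), and Fbln2, a fibulin of basement membranes, at 0.72 (SE 0.13; edgeR adjusted p = 0.137). The 6 tested WNT targets had a median of 0.91, led by Nkd2 at 1.35 and Ccnd1 at -0.49. These sums include the difference in fibroblast share given above.

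Of 19 other YAP and TEAD targets, 13 lay above 0 over all cells, with a median of 0.19. Axl, a receptor tyrosine kinase, was at 1.07 (SE 0.18; edgeR adjusted p = 0.131) and Tgfb2 at 0.50, and both missed the threshold. In endothelial-like cells 11 of 16 lay above 0 (median 0.13), led by Ccdc80 at 1.04 and Myof at 1.01. In fibroblast-like cells 11 of 14 lay above 0 (median 0.17), led by Axl at 0.53 and Lats2 at 0.40. In epicardial-like cells 7 of 15 did (median -0.14), led by Igfbp3 at 1.23 and Arhgef17 at -0.69. The Hippo components, among them the kinases and scaffolds that restrain YAP, had medians of 0.01 over all cells and 0.00, 0.13 and 0.10 in endothelial-like, fibroblast-like and epicardial-like cells. Vgll3 (1.29) and Tead1 (0.28) had the smallest p over all cells, Amot (0.57) and Amotl1 (0.19) in endothelial-like, Lats2 and Sav1 (-0.37) in fibroblast-like, and Mob1b (0.80) and Amotl1 (-0.37) in epicardial-like cells.

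The receptors and co-receptors that CCN proteins bind, integrin chains, syndecans and Lrp1, had a median of -0.08 over 12 tested genes in all cells. Itgav, the integrin alpha v chain, was at 0.70 (SE 0.15; edgeR adjusted p = 0.160) and Sdc4, a syndecan, at 1.22 (SE 0.31; adjusted p = 0.200). The medians were 0.09, 0.14 and 0.07 in endothelial-like, fibroblast-like and epicardial-like cells. Sdc4 and Lrp1 had the smallest p in endothelial-like cells (0.68 and 0.66) and in fibroblast-like cells (0.18 and 0.18), and Lrp1 and Itgb1 in epicardial-like cells (-0.25 and 0.15). TGF-beta ligands and early targets had medians of 0.34 over all cells, 0.15 in endothelial-like, 0.26 in fibroblast-like and -0.01 in epicardial-like cells. They were led by Tgfb2 and Tgfb3 (0.84) over all cells, Bhlhe40 (0.41) and Tgfbr2 (0.34) in endothelial-like, Smad7 (0.51) and Tgfbr2 (0.33) in fibroblast-like cells, and included Bhlhe40 (0.81) in epicardial-like cells.

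Immediate-early and heat shock genes, which tissue digestion can also induce, lay above 0 in 14 of 19 over all cells (median 0.32), 5 of 19 in endothelial-like (-0.15), 17 of 19 in fibroblast-like (0.43) and 16 of 19 in epicardial-like cells (0.52). Their leading genes were Btg2 (0.43) and Ier3 (0.40) over all cells, Klf4 (0.31) and Ier3 (0.28) in endothelial-like, Klf4 (0.96) and Socs3 (0.92) in fibroblast-like, and Nr4a1 (1.43) and Fosb (1.81) in epicardial-like cells, all short of the threshold. SRF and MRTF targets, mostly genes of the actin cytoskeleton, had medians of -0.17 over all cells, -0.16 in endothelial-like, 0.09 in fibroblast-like and 0.32 in epicardial-like cells. They were led by Vcl (-0.34) and Actb (-0.19) over all cells, Tagln (-1.35) and Tpm2 (-0.96) in endothelial-like, Srf (-0.64) and Zyx (0.34) in fibroblast-like, and Actb (0.39) and Actg1 (0.34) in epicardial-like cells. WNT targets had medians of 0.22 over 3 tested genes in endothelial-like, 0.19 over 4 in fibroblast-like and -0.06 over 4 in epicardial-like cells, with Ccnd1 (-0.23) and Nkd1 (0.28) leading in endothelial-like, Nkd2 (0.69) and Axin2 (0.27) in fibroblast-like, and Znrf3 (0.34) and Nkd1 (-0.10) in epicardial-like cells. Other matricellular genes had medians of -0.19 in endothelial-like cells, led by Fbln5 (-0.55) and Fbln1 (0.997), 0.14 in fibroblast-like cells, led by Smoc2 (-0.25) and Fbln2 (0.33), and 0.16 in epicardial-like cells, led by Thbs1 (1.11) and Tnxb (0.43).

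The genes whose pattern over classes and libraries was most like each member were found by Pearson's r of log2(CPM + 1) over 28 class by library sums, among 8741 genes with a mean of at least 10 CPM. These sums share libraries and depth, so r is a description with no test. For Wisp2 they were Cilp (0.95), Mfap4 (0.95), Hmcn2 (0.94), Inmt (0.94) and Dpt (0.94). For Ctgf they were Zfp9 (0.95), Peg3 (0.94), Snai1 (0.93), Golim4 (0.93) and Cacna2d1 (0.92). Cyr61 was most like Casp12 (0.91), Rab18 (0.91), Ghr (0.89), Dnajb2 (0.89) and Yap1 (0.88), and Nov most like Trip10 (0.87), Fam20a (0.84), Foxc1 (0.83), Ackr3 (0.83) and Thbd (0.83). The r values of Nov were the lowest among the 4 members.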

How the data were processed

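Single-cell RNA-seq UMI counts were analysed from 3 Dsp_het and 3 control libraries of sorted heart cells, sequenced on a NovaSeq6000 after 10x Chromium capture, per the labels' protocols. The values are raw counts per gene and barcode, deposited by the authors as 1 matrix of 31055 genes and 18283 barcodes with a table that assigns barcodes to samples. The build GRCm38 and the tool Seurat are named in the submitters' processing notes. Neither the counting tool nor its strand setting is stated in the sources used here.

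Barcodes under 500 UMIs, under 200 genes or over 20% mitochondrial UMIs were dropped. Scrublet called 35 doublets (0.214%), too few for the call to have worked, so doublets may remain. A barcode found in several libraries was kept only in the library that held a share of at least 0.5 of its UMIs. Where no library did, it stayed in each. Cells were clustered with scanpy 1.11.5 (2000 variable genes of which 1996 were used, since 4 members were left out; 30 components, 15 neighbours, Leiden resolution 1) and named from markers when at least 3 were present. The scoring rule was set after the data were seen. Endothelial clusters are called by leading genes.

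Counts were summed per class and library. The genotype test was edgeR 4.0.16's quasi-likelihood test (R 4.3.3, TMM, filterByExpr with a minimum count of 10), with Benjamini-Hochberg adjustment over all genes tested. DESeq2 1.42.0 was an alternative, and exact tests used scipy 1.17.1. On simulated counts with 100 genes changed by each fold, the test recovered 37%, 73%, 59% and 52% of 2-fold and 84%, 98%, 98% and 97% of 4-fold changes for all, endothelial-like, fibroblast-like and epicardial-like cells. It falsely called 8, 14, 18 and 18 unchanged genes in the same order. The changed genes were drawn from all genes tested, so these rates do not describe genes with few UMIs. Each library's depth sets a floor of 3 counts, which for all cells came to 0.197 to 0.436 CPM. Intervals are 95% Poisson or Clopper-Pearson and cover counting error only.

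The members, gene lists and tests were chosen with earlier results of these data known. Besides the members, the named genes are the 5 with the highest r per member and, from each list in which none passed, the 2 with the smallest p. A gene that this rule names in epicardial-like cells is not reported here.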

Additional observations from a re-analysis of the deposited data

How the results depend on the processing

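Counts of genes called moved with the setting. Over all cells, with 0 genes called, the count was 5 with copied barcodes included, 390 with DESeq2, 67 with no low-count filter, and 0 to 169 with 1 library left out, the highest without Dsp_het library 2. In endothelial-like cells, with 0 called, it was 12 with DESeq2, 172 with no low-count filter, 11 with the replicate number as a block, and 0 to 11 with 1 library left out (11 without Dsp_het library 2, 2 without control library 2). In fibroblast-like cells, with 1 called, it was 71 with no low-count filter, 4 with the block, and 0 to 6 with 1 library left out (6 without Dsp_het library 3, 0 without control library 2 or 3). In epicardial-like cells, with 0 called, it was 47 with no low-count filter, 3 with the block, and 0 to 5 with 1 library left out (5 without Dsp_het library 2, 1 without control library 3). For the interactions it was 42 with no low-count filter in fibroblast-like cells, with 0 called, and 0 with copies included, 0 with DESeq2, 71 with no low-count filter and 0 to 5 with 1 library left out (5 without Dsp_het library 2) in epicardial-like cells, with 1 called. The number of 15 member and cluster pairs without overlap between groups was 2, 1 with copies included (Cyr61 in the Ifit1 and Isg15 cluster), 3 with the members kept among the variable genes (Cyr61 in Ifit1 and Isg15 and in Lars2 and Syne1, Nov in Ccl21a and Rasa4), and 2 to 5 with 1 library left out, where smaller groups separate more often by construction (5 without Dsp_het library 2 or control library 2 or 3, 4 without Dsp_het library 1 or 3). The causes of the other changes were not tested.

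For single members, Nov kept its direction in every setting over all cells, at 0.79 to 1.32, and in endothelial-like cells, at 0.85 to 1.48. In epicardial-like cells it ran from 2.02 to 3.00. There it passed the count filter through its Dsp_het UMIs, so its direction there is a description and no support. Nov was past the threshold over all cells with DESeq2 (1.05, adjusted p = 0.0117). With no low-count filter it was past it in endothelial-like cells (1.12, SE 0.14; edgeR adjusted p = 9.76e-12) and epicardial-like cells (2.65, SE 0.49; edgeR adjusted p = 5.71e-05). In the filtered fits its SEs were 0.28 and 0.58, at similar fold changes. Nov missed the threshold over all cells with no low-count filter (edgeR adjusted p = 0.107). With DESeq2 it also missed it in endothelial-like cells and in epicardial-like cells (adjusted p = 0.850). In epicardial-like cells it was not fitted under the stricter cell filter or without Dsp_het library 1. The Cyr61 interaction in fibroblast-like cells also passed with no filter (0.80, SE 0.18; edgeR adjusted p = 0.00330), against 0.77 (SE 0.41) with the filter. With 1 library left out, 4 fold changes reversed, none of them called. Ctgf in endothelial-like cells ran from -0.21 to 0.25 (-0.05 without control library 2), Wisp2 in fibroblast-like cells from -0.053 (without control library 3) to 1.14, Cyr61 in epicardial-like cells from -0.42 to 0.38 and its interaction there from -0.28 (without Dsp_het library 3) to 0.71. With the members kept among the variable genes, 2 cluster pairs reversed, Cyr61 in Rbp7 and Hey1 against Lars2 and Syne1 (-0.51) and Nov in Vwf and Cytl1 against Ccl21a and Rasa4 (-1.21).

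The labels do not say whether the replicate numbers pair the libraries. Same-numbered libraries had correlations of deviations from group means of 0.02, -0.08 and -0.06, and other pairs had -0.06 to 0.14. With so few pairs, these values cannot decide it. The replicate block changed no call of a member, with Nov at 1.09 (edgeR adjusted p = 0.294) over all cells, 1.14 (0.421) in endothelial-like and 2.35 (0.356) in epicardial-like cells. Depth limits Wisp1 throughout, Wisp2 outside fibroblast-like cells and Nov in control epicardial-like cells.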
